A study of Homo sapiens with 6 samples.

Results

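The genes described here are 10 immediate early genes of the human genome: the AP-1 subunit genes FOS, FOSB, FOSL2, JUN, JUNB and JUND, the transcription factor gene EGR1, the nuclear protein gene IER2 and the phosphatase genes DUSP1 and DUSP6. They were taken by name from a table of 34869 genes, and all 10 were found. RNA was sequenced from NCI-H295R, an established adrenocortical carcinoma line that makes adrenal steroids, in 3 libraries of cells given a lentivirus with an shRNA (a short hairpin RNA that lowers a chosen transcript) against TPD52, called shTPD52, and 3 libraries of cells given a non-targeting shRNA, called shCtrl. Both groups were transduced and both grew in DMEM/F12 with serum and insulin-transferrin-selenium. The labels do not say how many hairpins were used, how long after transduction RNA was taken, whether any stimulus was given, or whether separate cultures stand behind the replicates. The p-values therefore speak only of the spread among these libraries, which may be technical.

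Immediate early genes are switched on within minutes of a signal, without new protein synthesis, mainly through serum response factor with its ETS-family partners and through CREB. Their RNAs are short-lived. FOS-family proteins pair with JUN-family proteins through a leucine zipper to form the DNA-binding complex AP-1, while JUN-family proteins can also pair with each other. EGR1 is a zinc finger factor, and DUSP1 and DUSP6 remove phosphate from MAP kinases and so limit the signal that induces the set. In adrenocortical cells angiotensin II and ACTH are known inducers of many of these genes.

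DUSP1 and JUN fell in shTPD52 cells, to 60.6% and 65.0% of their shCtrl means, and the other 8 genes did not pass the test. JUNB, EGR1 and IER2 had higher means in shTPD52 than in shCtrl, and FOS, FOSB, FOSL2, JUND and DUSP6 lower ones. The 2 calls among 10 genes stand beside 18.3% of all 12782 genes tested that were called (5.63% higher and 12.7% lower in shTPD52), so their number does not set the group apart. The test was limma on log2(FPKM + 0.5), with Benjamini-Hochberg adjustment over all genes that averaged 1 FPKM or more and a threshold of 0.05. Over all 10 genes the median log2 fold change was -0.18, beside -0.11 for all genes tested. FPKM is reads scaled to gene length and library size, so levels can be compared between genes, and the fold changes below are differences of the group means on that log2 scale, which understates changes of low genes.

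CREB and serum response factor are known to act on several of these genes close to the start of transcription, and the promoter sequence there is shown for that reason. In RefSeq on GRCh38.p14, 5 of the 10 genes had an element of the cAMP response type beginning between 70 and 60 bases before the start (positions -70 to -60, with -1 the base just before the start). In 4 genes it was the core TGACG or its reverse complement CGTCA, and in JUN it was TGACATCA, an AP-1-like site known from that promoter. Of all 35116 promoters of the same length, 1.86% held either element in that window. The window and the JUN site were chosen after the sequences were seen. Each line gives 30 bases, 5′ to 3′ on the gene's own strand, with the element in capitals.
FOS, chr14:75278752-75278781, plus strand: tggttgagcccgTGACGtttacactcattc
FOSB, chr19:45467924-45467953, plus strand: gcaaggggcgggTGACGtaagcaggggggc
FOSL2, chr2:28392780-28392809, plus strand: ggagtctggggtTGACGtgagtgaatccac
JUN, chr1:58784096-58784125, minus strand: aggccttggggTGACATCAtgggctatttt
EGR1, chr5:138465401-138465430, plus strand: tatggccatgtaCGTCAcgacggaggcgga
The FOSL2 and JUN elements lie inside those genes as GENCODE release 29 draws them, since it starts these genes 410 and 280 bases upstream of the RefSeq starts. It starts FOS 54 bases upstream, short of the FOS element. FOS, FOSB and FOSL2, which did not pass the test, and JUN, which did, all had such an element.

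DUSP1 and EGR1 differ in the elements of their whole upstream window. The 250 bases before the DUSP1 start (chr5:172771196-172771445, minus strand) held the full cAMP response element TGACGTCA at -125 and 4 TGACG cores in all, 2 of them within that element. It is given with these in capitals.
DUSP1: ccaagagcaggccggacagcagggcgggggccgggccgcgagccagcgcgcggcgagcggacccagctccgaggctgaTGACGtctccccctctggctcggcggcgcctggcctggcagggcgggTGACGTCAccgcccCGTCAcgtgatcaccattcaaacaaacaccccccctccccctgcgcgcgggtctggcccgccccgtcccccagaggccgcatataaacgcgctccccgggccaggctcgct
The same window of EGR1 (chr5:138465229-138465478, plus strand) held 2 CArG boxes, the element bound by serum response factor, at -105 and -83, and 2 TGACG cores at -135 and -66. Both kinds are in capitals.
EGR1: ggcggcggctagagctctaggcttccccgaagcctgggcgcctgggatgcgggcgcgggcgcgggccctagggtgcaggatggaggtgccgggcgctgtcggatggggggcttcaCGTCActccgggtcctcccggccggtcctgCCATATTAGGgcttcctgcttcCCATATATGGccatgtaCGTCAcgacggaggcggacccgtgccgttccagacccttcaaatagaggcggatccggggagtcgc
Over the 10 windows and both strands, a TGACG core was in 9, the full TGACGTCA in 2 (DUSP1 and JUND) and a CArG box in 1 (EGR1). Elements farther upstream were not looked for, so a gene without one in its window may hold one elsewhere. JUND, which did not pass the test, held the full element, and JUN, which fell, did not. Among all promoters 21.2% held a TGACG core, 1.65% the full element and 1.16% a CArG box in the same 250 bases. DUSP6 was the gene with no TGACG core, but GENCODE release 29 starts DUSP6 770 bases upstream of the RefSeq start, so that window lies wholly inside the gene as GENCODE draws it. The AP-1 site TGACTCA, found in 4.20% of all promoters, and the EGR site GCGTGGGCG, found in 0.720%, were in none of the 10 windows. A match is a description of letters and says nothing of binding in these cells. The part of these elements in the changes was not tested.

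TPD52 was at 0.630, 0.635 and 0.655 FPKM in shTPD52 replicates 1, 2 and 3 and at 1.42, 1.18 and 1.29 FPKM in shCtrl, so the knockdown mean was 49.3% of the shCtrl mean (log2 fold change -0.65, limma adjusted p = 0.0218), in the direction the labels give. It passed in 8 of 16 alternatives. Recovered depth ran from 29544341 to 38396624 reads in shTPD52 and from 30582681 to 36885546 in shCtrl. Mitochondrially encoded genes took 22.5%, 19.6% and 24.3% of reads in shTPD52 and 18.5%, 17.5% and 17.7% in shCtrl. On the first principal component, with 61.0% of the variance, shTPD52 replicate 2 was at 0.29, shTPD52 replicates 1 and 3 at 27.3 and 35.3, and the shCtrl libraries between -24.1 and -16.4, so results are also given without that library. As deposited, 720 genes were called higher and 1621 lower, and with median-ratio scaling, under which the median of all genes was 0.00, the numbers were 1083 and 1038. All 12 adrenocortical marker genes examined were above the filter, with summed levels of 675 to 714 FPKM in shTPD52 and 591 to 623 FPKM in shCtrl. CYP21A2, HSD3B2, MC2R, SULT2A1 and FDX1 rose and NR0B1 fell, beside 5.63% higher and 12.7% lower among all genes. These calls held in 16 of 16 alternatives for HSD3B2, 15 of 15 for MC2R and 15 of 16 for NR0B1. They held in 12, 11 and 10 of 16 for SULT2A1, FDX1 and CYP21A2. Of 5 endothelial markers none was above the filter (summed 0.143 to 0.239 FPKM in shTPD52, 0.143 to 0.305 in shCtrl), and PTPRC, a marker of white blood cells, was at or near 0 in both groups. Of 7 fibroblast markers only COL3A1 was above it (summed 19.3 to 24.5 FPKM in shTPD52, 23.2 to 24.9 in shCtrl) and PDGFRA was at or near 0. Of 4 chromaffin markers measured only CHGB was above it (summed 35.1 to 38.5 FPKM in shTPD52, 44.8 to 49.0 in shCtrl). CHGB fell (limma adjusted p = 0.029), a call that held in 8 of 16 alternatives and ended with median-ratio scaling (0.0805) and once length and GC were corrected for (0.0553). Of the others, CHGA averaged 0.827 ± 0.327 FPKM in shTPD52 and 0.338 ± 0.156 FPKM in shCtrl (SD, n = 3 each), and TH and PNMT were each at 0.123 FPKM or less in every library.

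**Figure D1:**
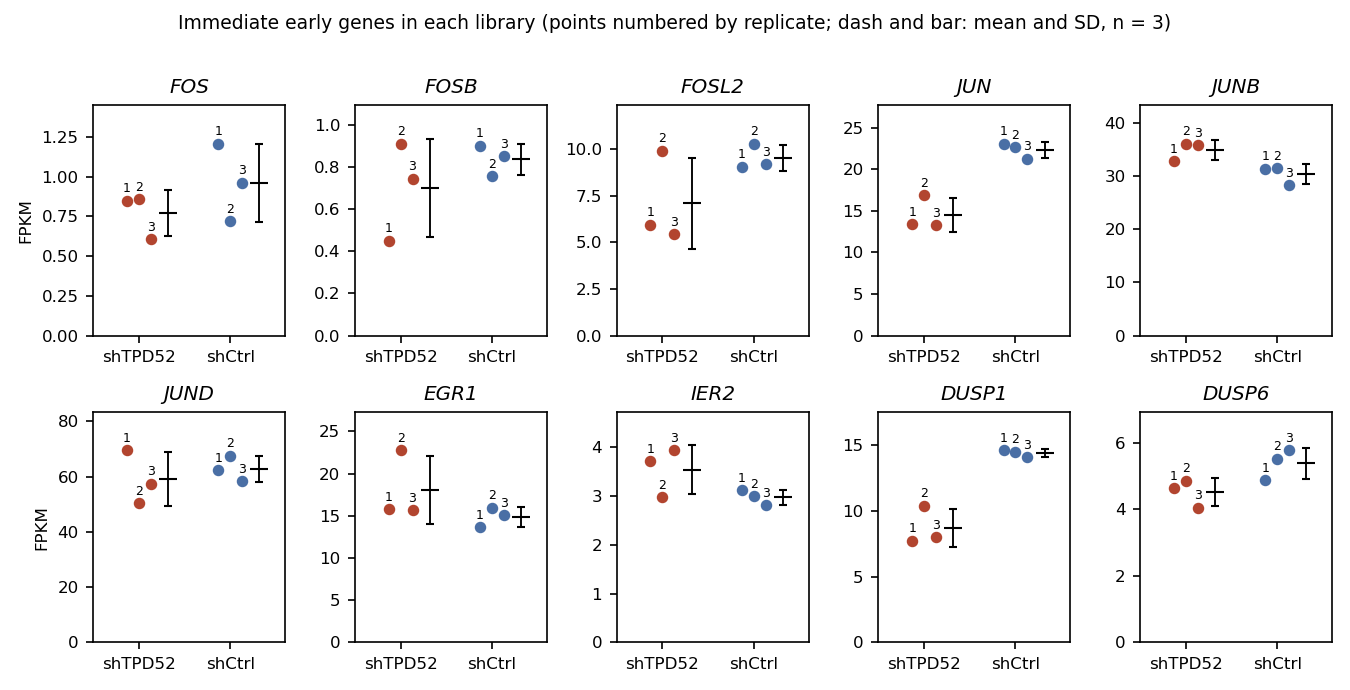
FPKM of the 10 genes (vertical axes, each from 0) in 3 shTPD52 libraries (left, red) and 3 shCtrl libraries (right, blue), with points numbered by replicate and a dash and bar for the mean and SD. JUN, DUSP1 and DUSP6 do not overlap, with shTPD52 lower, JUNB does not overlap, with shTPD52 higher, and shTPD52 replicate 2 stands near the shCtrl points for FOSL2 and above all others for EGR1.

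JUN (ENSG00000177606, GRCh38 chromosome 1, 58780788 to 58784327, minus strand, 1 exon block with no intron) encodes the AP-1 subunit that is phosphorylated by the kinase JNK and binds its own promoter. It stood at 13.4, 16.9 and 13.3 FPKM in shTPD52 replicates 1, 2 and 3 and at 23.1, 22.6 and 21.3 FPKM in shCtrl. Every shTPD52 library was below every shCtrl library, and replicate 2 was the highest of the knockdown libraries. The fall of JUN, a log2 fold change of -0.61 (SE 0.11, adjusted p = 0.0146 by limma), corresponds to means of 14.5 ± 2.05 FPKM in shTPD52 and 22.3 ± 0.941 FPKM in shCtrl (SD, n = 3 each). Recovered reads per library numbered 1437 to 2232 in shTPD52 and 2510 to 2868 in shCtrl. As in any bulk sample, fewer cells expressing a gene and less RNA per cell cannot be told apart. The call ended without a filter (limma, adjusted p = 0.0515) and without shTPD52 replicate 1 or any 1 shCtrl replicate (adjusted p from 0.0574 to 0.0722), while the log2 fold change stayed between -0.72 and -0.49 over 16 alternatives.

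JUNB, a JUN-family subunit that can oppose JUN at shared sites, and JUND, the subunit most evenly expressed in resting cells, did not pass the test. JUNB (GRCh38 chromosome 19, 12791496 to 12793315, plus strand) stood at 32.8, 36.1 and 35.8 FPKM in shTPD52 and 31.4, 31.4 and 28.3 FPKM in shCtrl. All shTPD52 values lay above all shCtrl values, by little. Its log2 fold change was 0.20 (SE 0.082, 95% interval 0.01 to 0.39, limma adjusted p = 0.118), and with median-ratio scaling it was 0.32 (adjusted p = 0.0509). The exon of JUNB overlaps HOOK2 on the opposite strand, and no strand setting is stated. Reads from the overlap may therefore be credited to the wrong gene or left uncounted. HOOK2 was at 14.0, 11.9 and 14.2 FPKM in shTPD52 and 17.0, 15.3 and 16.04 FPKM in shCtrl.

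JUND (GRCh38 chromosome 19, 18279760 to 18281622, minus strand) was the most abundant of the 10 in both groups, at 69.4, 50.3 and 57.5 FPKM in shTPD52 and 62.3, 67.6 and 58.3 FPKM in shCtrl. The groups overlapped, and shTPD52 held both the highest and the lowest value. The log2 fold change was -0.10 (SE 0.12, 95% interval -0.38 to 0.19, limma adjusted p = 0.593), with a sign that flips with median-ratio scaling (0.03) and without shTPD52 replicate 2 (0.01).

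Ratios within a library are free of library scaling, and they were computed after these values were seen. JUN made up 11.6%, 16.3% and 12.4% of the summed JUN, JUNB and JUND FPKM in shTPD52 and 19.8%, 18.6% and 19.7% in shCtrl. JUNB made up 28.3%, 34.9% and 33.6% in shTPD52 and 26.9%, 25.8% and 26.2% in shCtrl. Neither pair of groups overlapped, and each gave an exact two-sided permutation p of 0.1, the smallest that 3 against 3 libraries allow (0.2 adjusted over the 12 ratios and sums computed). The ratio of JUN to JUNB was 0.410, 0.468 and 0.370 in shTPD52 and 0.735, 0.721 and 0.753 in shCtrl, also without overlap (exact permutation p = 0.1, adjusted p = 0.2). The summed level of the 3 genes was 108 ± 6.38 FPKM in shTPD52 and 115 ± 7.03 FPKM in shCtrl (SD, n = 3 each) and overlapped.

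**Figure D2:**
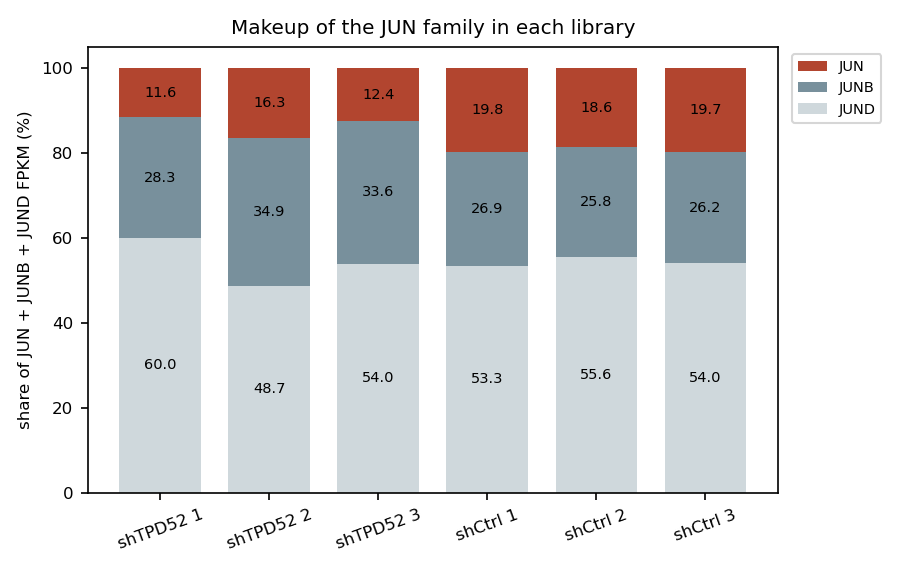
Stacked bars give the share (%) of JUN, JUNB and JUND in their summed FPKM in each of 3 shTPD52 libraries (left) and 3 shCtrl libraries (right). The JUN share is 11.6% to 16.3% in shTPD52 and 18.6% to 19.8% in shCtrl, and the JUNB share is 28.3% to 34.9% in shTPD52 and 25.8% to 26.9% in shCtrl.

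Among the FOS-family genes FOSL2 carried most of the RNA, between 80.1% and 84.8% of the summed FOS, FOSB and FOSL2 FPKM in shTPD52 and between 81.1% and 87.5% in shCtrl. FOSL2 (ENSG00000075426, GRCh38 chromosome 2, 28392448 to 28417312, plus strand) encodes FRA2, a subunit with a longer-lived induction than FOS. It stood at 5.95, 9.92 and 5.45 FPKM in shTPD52 and 9.06, 10.3 and 9.20 FPKM in shCtrl. Replicates 1 and 3 of shTPD52 were below every shCtrl library, and replicate 2 lay within the shCtrl range. The log2 fold change was -0.44 (SE 0.20, 95% interval -0.90 to 0.02, limma adjusted p = 0.142). Without shTPD52 replicate 2 FOSL2 passed, at -0.69 (limma adjusted p = 0.00194), and after the length and GC correction the value was -0.20 (adjusted p = 0.388).

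FOS and FOSB, the classical transient subunits, were low in both groups and under the filter, so each was added alone to the fit. FOS (GRCh38 chromosome 14, 75278774 to 75282230, plus strand) stood at 0.850, 0.860 and 0.605 FPKM in shTPD52 and 1.21, 0.718 and 0.962 FPKM in shCtrl, on 70 to 132 reads per library over both groups. The groups overlapped, and the log2 fold change was -0.19 (SE 0.18, 95% interval -0.61 to 0.22, limma adjusted p = 0.45). FOSB (GRCh38 chromosome 19, 45467995 to 45475179, plus strand) stood at 0.451, 0.913 and 0.746 FPKM in shTPD52 and 0.904, 0.760 and 0.854 FPKM in shCtrl. These groups overlapped too, with a log2 fold change of -0.17 (SE 0.19, 95% interval -0.60 to 0.26, limma adjusted p = 0.518) that turned to 0.03 after the length and GC correction. Its exons overlap ERCC1 on the opposite strand, a DNA repair gene at 12.0 to 14.8 FPKM in shTPD52 and 11.3 to 12.2 FPKM in shCtrl.

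EGR1 (ENSG00000120738, GRCh38 chromosome 5, 138465490 to 138469315, plus strand) stood at 15.8, 22.7 and 15.7 FPKM in shTPD52 and 13.6, 15.97 and 15.05 FPKM in shCtrl. Only shTPD52 replicate 2 lay above the shCtrl range. The log2 fold change was 0.25 (SE 0.15, 95% interval -0.09 to 0.60, limma adjusted p = 0.242), and without that library it was 0.08 (adjusted p = 0.46). EGR1 was above JUN in every shTPD52 library and below it in every shCtrl library: the ratio of JUN to EGR1 was 0.850, 0.743 and 0.846 in shTPD52 and 1.70, 1.42 and 1.41 in shCtrl (exact permutation p = 0.1, adjusted p = 0.2).

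IER2 (GRCh38 chromosome 19, 13150415 to 13154908, plus strand), a small nuclear protein of the immediate early set, stood at 3.70, 2.97 and 3.92 FPKM in shTPD52 and 3.11, 2.98 and 2.80 FPKM in shCtrl. Replicates 1 and 3 of shTPD52 were above every shCtrl library, and replicate 2 was within the shCtrl range. The log2 fold change was 0.21 (SE 0.12, 95% interval -0.07 to 0.50, limma adjusted p = 0.229). Without shTPD52 replicate 2 IER2 passed as higher, at 0.32 (limma adjusted p = 0.0282).

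DUSP1 (ENSG00000120129, GRCh38 chromosome 5, 172768090 to 172771195, minus strand) encodes a nuclear phosphatase of JNK, p38 and ERK that is itself induced by stress, glucocorticoids and cAMP. It stood at 7.73, 10.4 and 7.98 FPKM in shTPD52 and 14.6, 14.5 and 14.0 FPKM in shCtrl. The groups were well apart, and again shTPD52 replicate 2 was the knockdown library nearest to the controls. The fall of DUSP1, a log2 fold change of -0.70 (SE 0.12, adjusted p = 0.0131 by limma), corresponds to means of 8.70 ± 1.47 FPKM in shTPD52 and 14.4 ± 0.285 FPKM in shCtrl (SD, n = 3 each). Recovered reads per library numbered 460 to 763 in shTPD52 and 892 to 1043 in shCtrl. The call ended without shTPD52 replicate 1 or any 1 shCtrl replicate (limma adjusted p from 0.0516 to 0.0718), with the log2 fold change between -0.83 and -0.59 over 16 alternatives. The exons of DUSP1 overlap AC022217.3 on the opposite strand, so the strand limit given for JUNB holds here too. Exons of FOSL2, IER2 and DUSP6 also overlap genes on the opposite strand. No levels were found under the names of these overlapping genes.

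DUSP6 (GRCh38 chromosome 12, 89347232 to 89353271, minus strand) encodes a cytoplasmic phosphatase selective for ERK and is a common readout of ERK signalling. It stood at 4.63, 4.86 and 4.05 FPKM in shTPD52 and 4.87, 5.52 and 5.77 FPKM in shCtrl. The groups did not overlap but shTPD52 replicate 2 and shCtrl replicate 1 almost met. The log2 fold change was -0.23 (SE 0.11, 95% interval -0.48 to 0.02, limma adjusted p = 0.155). The ratio of DUSP1 to DUSP6 was 1.67, 2.14 and 1.97 in shTPD52 and 2.99, 2.62 and 2.44 in shCtrl (exact permutation p = 0.1, adjusted p = 0.2).

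**Figure D3:**
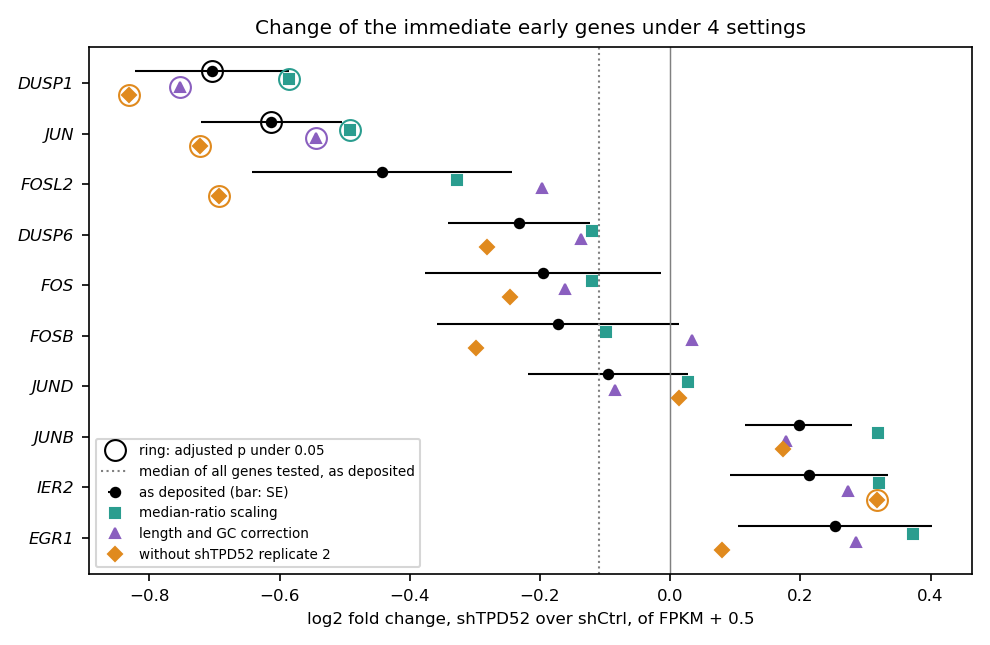
Log2 fold changes of shTPD52 over shCtrl (horizontal axis, FPKM + 0.5) for the 10 genes as deposited (black, bar SE), with median-ratio scaling (green), after the length and GC correction (purple) and without shTPD52 replicate 2 (orange), with rings for adjusted p under 0.05. DUSP1 and JUN are ringed under all 4 settings, FOSL2 and IER2 only without shTPD52 replicate 2, FOSB changes sign with the length and GC correction, and JUND with median-ratio scaling and without shTPD52 replicate 2.

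The groups did not overlap for JUN, DUSP1, DUSP6 and JUNB, 4 of 10 genes, beside 42.0% of all genes tested (28.3% with shTPD52 lower and 13.8% with shTPD52 higher). By mean level in shCtrl the order was JUND, JUNB, JUN, EGR1, DUSP1, FOSL2, DUSP6, IER2, FOS and FOSB. In shTPD52 it was the same but for EGR1 above JUN. Neighbours whose libraries overlapped were EGR1 and JUN, DUSP1 and FOSL2, and FOS and FOSB in shTPD52, and EGR1 and DUSP1, and FOS and FOSB, in shCtrl, so these neighbours do not differ beyond their spread over libraries. Within each shTPD52 library, however, EGR1 was above JUN and DUSP1 above FOSL2, while the order of EGR1 and DUSP1 in shCtrl, and of FOS and FOSB in both groups, varied from library to library. The spread within shTPD52 was widest for FOSL2 and FOSB, with an SD of 34.5% and 33.3% of the mean, against 7.15% and 8.72% in shCtrl, and narrowest for JUNB, at 5.28% in shTPD52 and 5.96% in shCtrl.

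Genes whose 6 values moved most like FOS, EGR1 and DUSP6 were found by the root mean square difference of centred log2 values. For FOS these were VCPKMT, LINC00173 and AURKC, with differences of 0.061 to 0.069. For EGR1 they were COLCA1, ENSG00000279207 and CA5B, with differences of 0.038 to 0.062. For DUSP6 they were POLR3E, ST8SIA5-DT and VPS52, with differences of 0.014 to 0.020. None of these is on the lists of signalling genes used here, and with 6 libraries such neighbours are a description.

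Of 23 other immediate early genes tested, 6 fell, none rose and 17 did not pass, so 26.1% were lower beside 12.7% of all genes. Their log2 fold changes had a median of -0.31. The lists used from here on share some genes. RHOB, a small GTPase of the actin cytoskeleton, stood at 93.0, 104 and 90.7 FPKM in shTPD52 and 173, 164 and 143 FPKM in shCtrl, and its log2 fold change was -0.73 (adjusted p = 0.00824 by limma), a fall. TRIB1, a pseudokinase that recruits a ubiquitin ligase, stood at 3.18, 5.61 and 3.35 FPKM in shTPD52 and 9.38, 10.5 and 9.36 FPKM in shCtrl. It fell by 1.21 (limma adjusted p = 0.0117).

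SGK1, a kinase gene induced by serum, glucocorticoids and aldosterone, stood at 6.87, 8.57 and 6.17 FPKM in shTPD52 and 10.9, 11.0 and 11.1 FPKM in shCtrl, and fell by 0.59 (limma adjusted p = 0.0204). NR4A1, an orphan nuclear receptor gene, and ZFP36L1 and ZFP36, whose proteins bind AU-rich elements and speed the decay of short-lived RNAs, made up the rest of the 6. None of the 6 overlapped between groups, which adds no support, since the test on the same values picked them. Among all genes tested 28.3% did not overlap, with shTPD52 lower. Correcting for length and GC ended the call of NR4A1 (adjusted p = 0.0604 by limma), and median-ratio scaling that of ZFP36 (adjusted p = 0.108). The number that fell was 1 or 2 without shTPD52 replicate 1 or any 1 shCtrl replicate and without a filter. In those settings 0.305% to 2.12% of all genes were lower. It was 4 without shTPD52 replicate 3, where 4.5% of all genes were lower. Without shTPD52 replicate 2, 14 fell and 1 rose, where 32.9% of all genes were lower and 12.6% higher. With median-ratio scaling 5 were lower and 1, CCN1, was higher, as it was without shTPD52 replicate 2. That scaling called 8.12% of all genes lower and 8.47% higher. RHOB passed in all 16 alternatives, TRIB1 in 13 and SGK1 in 11.

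**Figure D4:**
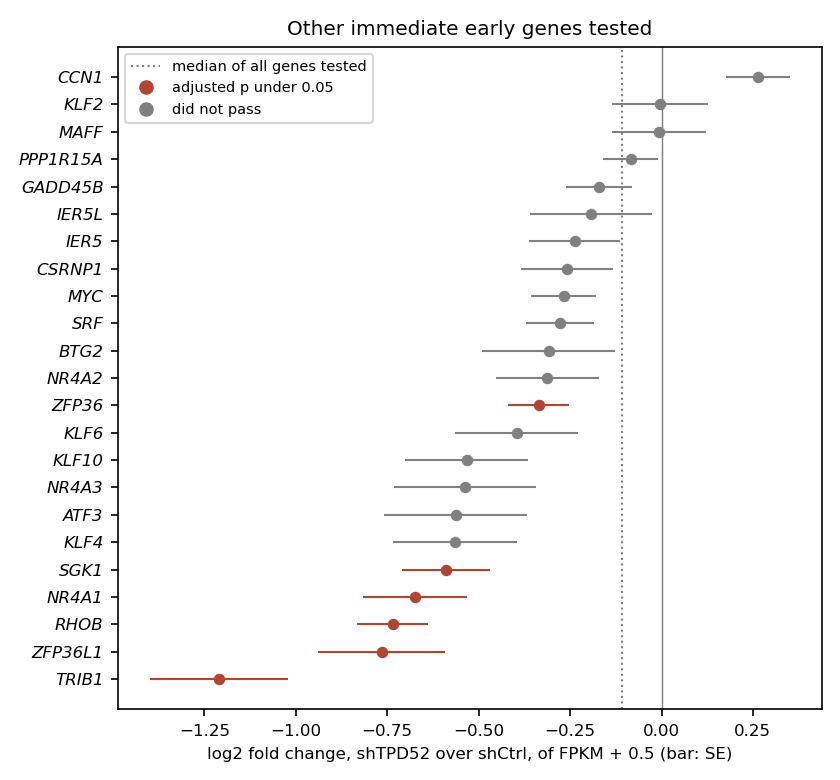
Log2 fold changes of shTPD52 over shCtrl (horizontal axis, FPKM + 0.5, bar SE) for the 23 other immediate early genes tested, with genes past adjusted p of 0.05 in red and the median of all genes as a dotted line. The 6 genes in red lie between -1.21 for TRIB1 and -0.34 for ZFP36, and CCN1 is the gene with a value clearly above 0.

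Of 7 tested dimer partners and relatives of AP-1, 3 fell, none rose and 4 did not pass. Among all genes tested 12.7% were lower and 5.63% higher. MAFG and MAFK, small MAF proteins that pair with other leucine zipper factors, fell by 0.54 and 0.62 (limma adjusted p = 0.0129 and 0.0175). ATF7, a relative of ATF2, fell by 0.36 (limma adjusted p = 0.0468), a call that held in 4 of 15 alternatives. MAFG held in 13 of 16 and MAFK in 10 of 15, and both were lower with median-ratio scaling. FOSL1, the remaining FOS-family gene, was under the filter at 0.645 ± 0.128 FPKM in shTPD52 and 0.457 ± 0.116 FPKM in shCtrl (SD, n = 3 each). It is named outside the rule, after its values were seen. The falls numbered 0 to 2 without any 1 library other than shTPD52 replicate 2, where 0.305% to 4.5% of all genes were lower. They numbered 5 without shTPD52 replicate 2, where 32.9% of all genes were lower.

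None of 7 other MAP kinase phosphatase genes passed (limma, 0 at adjusted p under 0.05, 2 at unadjusted p under 0.05, DUSP4 and DUSP8, and 2 by limma-voom on recovered reads), and their median log2 fold change was -0.17. Of 10 tested ERK-induced transcripts and feedback inhibitors, 1 rose and 1 fell, beside 5.63% higher and 12.7% lower among all genes. ETV4, an ETS-family factor gene, stood at 2.32, 2.71 and 2.79 FPKM in shTPD52 and 0.988, 1.27 and 1.02 FPKM in shCtrl, without overlap, and rose by 0.97 (limma adjusted p = 0.00905). That call ended without shCtrl replicate 3. SPRY2, an inhibitor of receptor tyrosine kinase signalling, fell by 0.41 (limma adjusted p = 0.0427) and lost its call under median-ratio scaling. The falls numbered 5 without shTPD52 replicate 2, where 32.9% of all genes were lower. They numbered 0 without any 1 other library, where 0.305% to 4.5% of all genes were lower.

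Of 18 tested genes of the MAP kinase cascade, 1 rose, 2 fell (11.1%) and 15 did not pass, shares close to the 5.63% higher and 12.7% lower among all genes. MAP2K4, which encodes a kinase that activates JNK, rose by 0.38 (limma adjusted p = 0.0302). MAPK3 (ERK1) fell by 0.30 and MAP2K1 (MEK1) by 0.59 (limma adjusted p = 0.041 and 0.0429), and both calls ended with median-ratio scaling. Of 12 tested factors that act at immediate early promoters, 3 fell, none rose and 9 did not pass, beside the same 12.7% lower among all genes. NAB2, a corepressor of EGR1, fell by 0.39 (limma adjusted p = 0.0203), and CRTC3 and CRTC2, coactivators of CREB, fell by 0.48 and 0.26 (limma adjusted p = 0.0336 and 0.0484). With median-ratio scaling NAB2 and CRTC2 lost their calls, and after the length and GC correction CRTC2, CRTC3 and, in the cascade, MAPK3 lost theirs. When any 1 library other than shTPD52 replicate 2 was left out, no gene of the cascade or factor lists passed. In those settings 0.305% to 4.5% of all genes were lower and 0.376% to 2.52% higher. Without shTPD52 replicate 2, 8 genes of each list fell and 2 of the cascade rose, in a setting where 32.9% of all genes fell and 12.6% rose.

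Heat shock genes, which can rise with handling stress as immediate early genes can, included 4 that rose, HSPA8, DNAJB1, HSPE1 and HSP90AA1, among 10 tested, and 6 did not pass, beside 5.63% higher among all genes. Their summed level was 971 to 1108 FPKM in shTPD52 and 809 to 810 FPKM in shCtrl. HSPA8 rose by 0.58, DNAJB1 by 0.55 and HSPE1 by 0.54 (limma adjusted p = 0.00797, 0.0109 and 0.0291). Of the 6 that did not pass, HSPB1, HSPD1, HSPA1A and HSPH1 had log2 fold changes of 0.33, 0.16, 0.13 and 0.02. BAG3 and HSPA1B had values below 0, at -0.15 and -0.22. The risers numbered 0 without shCtrl replicate 3, where 0.376% of all genes were higher. They numbered 1 without shCtrl replicate 1 (0.775% of all genes higher) or shTPD52 replicate 1 (0.509%). The number was 2 without shCtrl replicate 2 (1.4%) or without a filter (0.508%), 3 without shTPD52 replicate 3 (2.52%), and 5 without shTPD52 replicate 2. That last setting called 12.6% of all genes higher. The part of the heat shock genes in the values of the immediate early genes was not tested. With levels rescaled to reads outside mitochondrial genes, JUN and DUSP1 remained lower, with log2 fold changes of -0.54 and -0.64 (limma adjusted p = 0.0164 and 0.0145).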

How the data were processed

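The authors deposited FPKM in 1 column per library. HISAT2 2.2.1, featureCounts 2.0.3 and GRCh38 are named in the submitters' processing notes, with no role. No source used here gives the annotation, the read filters or the strandedness. Symbols were matched for 34803 of 34869 genes (99.8%).

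Depth and gene-level reads were recovered from the steps of low FPKM values, with the exon length of GENCODE release 29 or, for 8382 of 12782 genes, the nearest length that gave whole reads within 0.02. That choice brings wholeness about, so it is no check. Odd counts made up 26.0% to 29.4% of counts from 1 to 20, as counting both mates would leave, so reads may stand for fewer fragments. A floor of 3 reads is 0.0391 to 0.0508 FPKM for a gene of 2 kb and covers counting error only.

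Tests used limma 3.58.1 in R 4.3.3 on log2(FPKM + 0.5), with an intensity trend, over genes averaging 1 FPKM or more (8 of 10 members, with FOS, FOSB and TPD52 each added alone). Alternatives were pseudocounts 0.1 and 1, the filter at 5 FPKM or dropped, scaling by median ratios, quantile normalization, rescaling to non-mitochondrial reads, a loess correction for length and GC content (span 0.3, values for 99.4% of genes), limma-voom on recovered reads, the replicate number as a block, and leaving out each library. The scripts were tested on simulated data. The rule named the 10 members, TPD52, the 3 passing genes of each list with the smallest p, and the nearest patterns of FOS, EGR1 and DUSP6. The members and lists were chosen with earlier results of these data known. Genes named outside the rule were chosen after their values were seen. They are NR4A1, ZFP36, ZFP36L1, CCN1, FOSL1, HSP90AA1, the heat shock genes that did not pass, DUSP4, DUSP8, the marker genes and overlapping genes. Some genes of the lists are not reported here by name.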

Additional observations from a re-analysis of the deposited data

How the results depend on the processing

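As deposited, 2341 genes and 2 of the 10 members were called, JUN and DUSP1. Without a filter the numbers were 531 and 1 (DUSP1). Leaving out 1 library gave from 87 to 5825 genes and from 0 to 4 members: no member without shTPD52 replicate 1 or any 1 shCtrl replicate (limma, 159, 226, 450 and 87 genes, with JUN and DUSP1 at unadjusted p under 0.05 each time), JUN and DUSP1 without shTPD52 replicate 3 (897 genes), and FOSL2, JUN, IER2 and DUSP1 without shTPD52 replicate 2 (5825 genes). The cause was not tested. Pseudocounts, a filter of 5 FPKM, the 4 scalings and corrections, limma-voom and the replicate block each called JUN and DUSP1 and no other member. Signs flipped for FOSB after the length and GC correction (0.033), and for JUND with median-ratio scaling (0.027) and without shTPD52 replicate 2 (0.013), while over single left-out libraries JUND ranged from -0.217 to 0.013. With the replicate number as a block 3064 genes and 2 members were called. Deviations of same-numbered libraries correlated at 0.045, 0.248 and 0.022 over 12782 genes, and shTPD52 replicate 3 correlated best with shCtrl replicate 1, so the numbers were not taken as pairs. FOS and FOSB rested on 70 to 185 reads per library, the lowest of the 10 genes, and the part of depth in their intervals was not tested.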
